A study of Mus musculus with 2 samples.

Results

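Peroxiredoxins, superoxide dismutases, catalase and thioredoxin are enzymes and carrier proteins that remove superoxide and hydrogen peroxide from cells. The 10 genes described here are Prdx1 to Prdx6, Sod1, Sod2, Cat and Txn1, taken by gene name from the transcript tables of both libraries. All 10 had reads in both, among 18111 annotated genes with at least 1 read in either library. RNA was read in long-read sequencing, where a read is meant to cover a whole cDNA molecule. The tissue was adrenal gland of female B6CASTF1/J mice, the F1 cross of C57BL/6 and CAST, aged 14 days. The only group holds 2 libraries, biological replicates 2 and 1, with no treatment and no control. Replicate 2 comes from a tissue sample named for a single female and replicate 1 from one named for 3 females. Both library descriptions speak of 3 females, and both tissue samples carry the same donor record. Whether either library is a pool is therefore not settled by the labels.

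Superoxide dismutases turn superoxide, which leaks from mitochondrial respiration and from cytochrome P450 chemistry, into hydrogen peroxide. Catalase splits hydrogen peroxide inside peroxisomes, while peroxiredoxins reduce it with a reactive cysteine that is oxidised in each cycle. Thioredoxin reduces most oxidised peroxiredoxins back, and thioredoxin reductase recharges thioredoxin with NADPH. In the adrenal cortex, steroid hydroxylation in mitochondria passes electrons through ferredoxin to cytochrome P450 enzymes and is a known source of these oxidants, and Prdx3 is known for its abundance in that tissue.

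The reactive cysteine that defines the family is shown in the coding sequence of each peroxiredoxin and of Txn1, because it is the chemical feature the 7 genes share and because it shows how far the family members have drifted apart around it. Letters are the mm10 reference coding strand, read through the GENCODE M21 annotation, with cysteine codons in capitals. The codon shown is the peroxidatic cysteine in the peroxiredoxins and the pair of redox cysteines in Txn1. The Prdx3, Prdx4 and Prdx5 stretches are joined across an intron, so their coordinates span it.
Prdx1, chr4:116691808-116691840, plus strand: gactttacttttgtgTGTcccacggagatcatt
Prdx2, chr8:84970468-84970500, plus strand: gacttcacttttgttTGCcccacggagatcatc
Prdx3, chr19:60870112-60871424, minus strand: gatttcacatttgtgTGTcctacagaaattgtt
Prdx4, chrX:155332445-155334842, minus strand: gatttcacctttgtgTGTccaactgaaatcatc
Prdx5, chr19:6907665-6908005, minus strand: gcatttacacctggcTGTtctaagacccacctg
Prdx6, chr1:161247353-161247385, minus strand: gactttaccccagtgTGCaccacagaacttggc
Txn1, chr4:57951806-57951847, minus strand: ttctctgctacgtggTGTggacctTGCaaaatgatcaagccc
Over the whole coding sequence, Prdx1 and Prdx2 were 69.7% identical and Prdx3 and Prdx4 57.9% identical. The other 13 pairs of peroxiredoxins lay between 45.6% and 52.5%. At this distance the 6 genes differ at many positions along a full-length read.

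Replicate 2 held 991731 reads and replicate 1 held 1143111 reads, of which 946553 and 1065570 fell in annotated genes. Levels are given as CPM, with these gene reads as the total. A gene with 0 reads would have a level of at most 3.17 CPM in replicate 2 and 2.82 CPM in replicate 1, the limit of 3 counts. Markers of the steroid-making cortex and of chromaffin cells were all present in both libraries, as the tissue label requires. Replicate 2 stood apart by its hepatocyte markers, whose 10 genes summed to 81210 CPM, against 760 CPM in replicate 1. Skeletal muscle markers summed to 2003 CPM in replicate 2 and 66.6 CPM in replicate 1.

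The libraries were compared gene by gene with an exact conditional binomial test on reads, two-sided, with Benjamini-Hochberg adjustment at 0.05 over the 9211 genes with at least 20 summed reads. Log2 ratios set replicate 2 over replicate 1 on the CPM scale after 0.5 reads were added to each count, and their SE is the counting error. With 1 library for each tissue sample, the test compares these libraries and not animals, and the difference has no replicate check. Of all genes tested, 26.4% passed, with 8.58% higher and 17.9% lower in replicate 2, and the median log2 ratio was -0.28. Among the 10 genes, 6 passed, 3 higher and 3 lower in replicate 2, and their median log2 ratio was 0.06. With spike-ins as the total, 6 were higher and 0 lower, where 2071 of all 9211 genes were higher and 170 lower. Together the 10 genes took 4736 reads in replicate 2 and 5423 in replicate 1, or 5003 and 5089 CPM.

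Prdx1, the most abundant of the cytosolic peroxiredoxins here, reached 1577 CPM in replicate 2 and 1411 CPM in replicate 1. It ranked 55th and 53rd of all genes in these libraries. Prdx4, which works in the endoplasmic reticulum and is secreted, had the lowest mean level of the 10, at 108 CPM in replicate 2 and 46.9 CPM in replicate 1. By mean level the order was Prdx1 at 1494 ± 118 CPM, Prdx2 at 831 ± 294, Prdx6 at 621 ± 61.1, Prdx3 at 547 ± 193 and Sod2 at 512 ± 9.89 (SD, n = 2). It went on with Cat at 496 ± 247 CPM, Prdx5 at 239 ± 35.5, Txn1 at 136 ± 48.4, Sod1 at 92.6 ± 20.4 and Prdx4 at 77.3 ± 43.0 (SD, n = 2). Between neighbours in this order, the values of the libraries were apart only for Prdx1 over Prdx2, Cat over Prdx5 and Prdx5 over Txn1. The other 6 neighbouring pairs overlapped, so their order is not settled by 2 libraries.

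**Figure D1:**
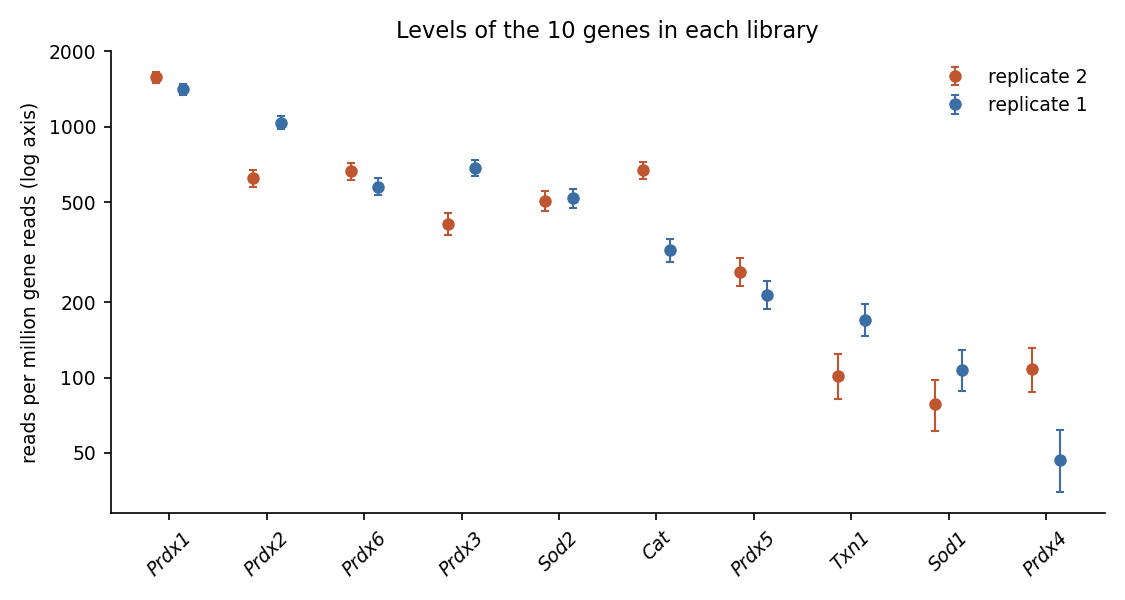
Level of each gene in CPM over gene reads (log axis), replicate 2 left and replicate 1 right, with exact Poisson 95% intervals that cover counting error only. Prdx1 was the highest of the 10 in both libraries, while Cat and Prdx4 were higher in replicate 2, and Prdx2, Prdx3 and Txn1 lower by this total though not by spike-ins.

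Divided by the annotated length of the leading transcript, the order changed for several genes. Among them was Sod2, whose leading transcript measures 5861 bases, of which 669 are coding. Per kilobase, Sod2 had 86.2 CPM in replicate 2, against 88.5 CPM in replicate 1, which put it 10th and 9th. Sod1, whose leading transcript measures 641 bases, had 122 CPM per kilobase in replicate 2 and 167 CPM per kilobase in replicate 1. Per kilobase the top gene was Prdx1 in replicate 2, with 688 CPM, and Prdx2 in replicate 1, with 693 CPM. Cat fell from 2nd to 5th in replicate 2 and from 6th to 8th in replicate 1, while Prdx2 rose from 4th to 2nd in replicate 2. Sod1 thus moved up and Sod2 down in the order when length was counted. Where each read covers a whole molecule, counts need no division by length. The order per kilobase therefore shows only how far the order depends on that choice, and does not replace the order by CPM.

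Cytosolic peroxiredoxins did not move together. Prdx1 had 1493 reads in replicate 2 against 1503 in replicate 1, a log2 ratio of 0.16 (SE 0.053), and passed as higher (exact binomial test, adjusted p = 0.0116). Prdx2, a cytosolic relative of Prdx1 that is abundant in red blood cells, had 590 reads in replicate 2 against 1107 in replicate 1. Its log2 ratio of -0.74 (SE 0.074) passed as lower (exact binomial test, adjusted p = 5.94e-23). Prdx6, which has a single reactive cysteine and also acts on phospholipids, had 629 reads in replicate 2 against 616 in replicate 1. Its log2 ratio of 0.20 (SE 0.082) did not pass (exact binomial test, adjusted p = 0.0539). The closest pair by sequence, Prdx1 and Prdx2, therefore lay on opposite sides of 1 in the ratio of the libraries.

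The mitochondrial peroxiredoxins also lay apart. Prdx3, which is located in the mitochondrial matrix, had 389 reads in replicate 2 against 728 in replicate 1. Its level of 411 CPM in replicate 2 was lower than the 683 CPM in replicate 1, with a log2 ratio of -0.73 (SE 0.091; exact binomial test, adjusted p = 3.83e-15). Prdx5, found in mitochondria, peroxisomes and cytosol, had 250 reads in replicate 2 against 228 in replicate 1, or 264 and 214 CPM. Its log2 ratio of 0.30 (SE 0.132) did not pass (exact binomial test, adjusted p = 0.0742). Prdx4 had the largest ratio of the 10, with 102 reads in replicate 2 and 50 in replicate 1. Its log2 ratio of 1.19 (SE 0.248) passed as higher (exact binomial test, adjusted p = 8.62e-06), on the fewest reads of the set.

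Txn1, the cytosolic thioredoxin that reduces peroxiredoxins, had 96 reads in replicate 2 against 181 in replicate 1. Its log2 ratio of -0.74 (SE 0.182) passed as lower (exact binomial test, adjusted p = 0.00032), a ratio close to those of Prdx2 and Prdx3. Sod1 and Sod2 showed no passing difference by total gene reads. Sod2, the manganese enzyme of mitochondria, had 478 reads in replicate 2 against 553 in replicate 1, a log2 ratio of -0.04 (SE 0.090; exact binomial test, adjusted p = 0.830). Sod1, the copper and zinc enzyme of the cytosol, had 74 reads in replicate 2 against 114 in replicate 1, a log2 ratio of -0.45 (SE 0.215; exact binomial test, adjusted p = 0.119). Cat, the peroxisomal catalase, had 635 reads in replicate 2 against 343 in replicate 1. Its level of 671 CPM in replicate 2 was 2.08-fold that of 322 CPM in replicate 1, with a log2 ratio of 1.06 (SE 0.097), and passed as higher (exact binomial test, adjusted p = 1.11e-27). Cat and Prdx4 were the only genes of the 10 whose level in replicate 2 was more than double that in replicate 1.

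The sign of the ratio of Sod1 and Sod2, and the calls of several other genes, depended on the scaling. Under trimmed mean of M-values (TMM) scaling the median log2 ratio over all genes was -0.03, and under scaling by spike-in reads 0.31. The all-gene split of 790 higher and 1646 lower became 1093 and 643 under TMM, and 2071 and 170 with spike-ins. Prdx1, Prdx4 and Cat were higher under all of these scalings, with log2 ratios of 0.41, 1.44 and 1.31 under TMM and 0.75, 1.78 and 1.65 with spike-ins. Prdx2, Prdx3 and Txn1 remained lower under TMM, at -0.49, -0.48 and -0.49, and did not pass with spike-ins, where all 3 stood at -0.15. Prdx5 and Prdx6 passed as higher under TMM, at 0.55 and 0.45, and with spike-ins, at 0.89 and 0.79. Sod2 turned to 0.21 under TMM and 0.55 with spike-ins, where it passed, and Sod1 turned to 0.14 with spike-ins, where it did not.

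**Figure D2:**
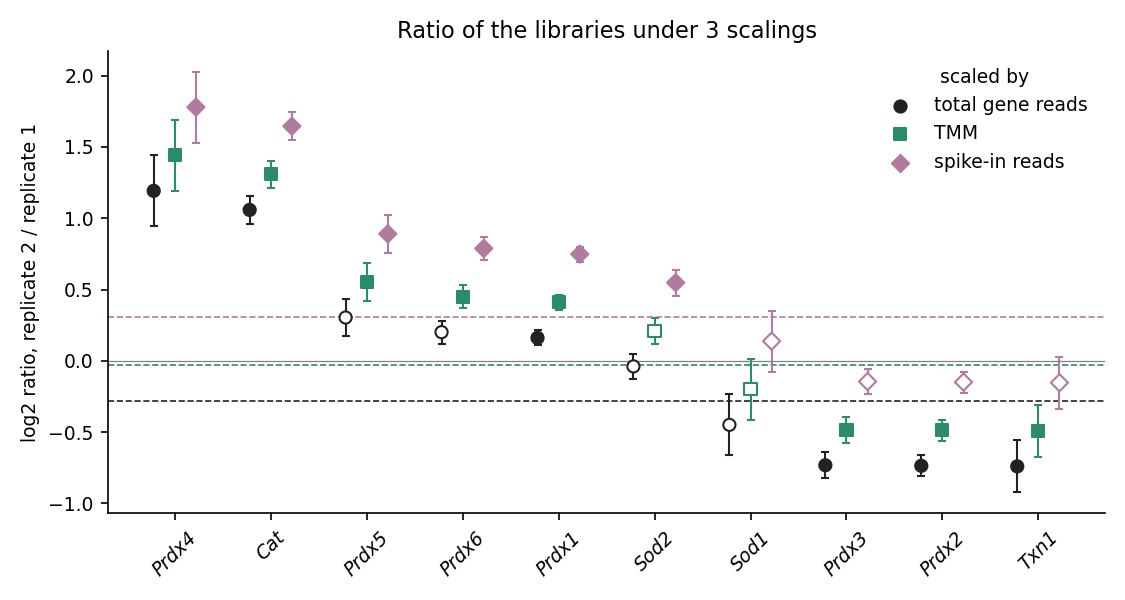
Log2 ratio of replicate 2 over replicate 1 for each gene, with its counting SE, under 3 scalings. Filled symbols passed the test, open ones did not, and dashed lines are the median of all genes under the same scaling. The order of the genes is the same under each scaling, and only the position of 0 moves through it.

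Set against the median of all genes, which removes the choice of scaling, the log2 ratios of the 10 genes ran from -0.46 to 1.47. Prdx4 stood 1.47 above the median and Cat 1.34 above it. Prdx5, Prdx6 and Prdx1 stood 0.58, 0.48 and 0.44 above it, and Sod2 0.24 above it. Sod1 stood at -0.17, Prdx3 at -0.45, and Prdx2 and Txn1 both at -0.46 against this median. The genes thus spread over both sides of the typical gene of these libraries.

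Markers of several cell types differed between the libraries beside these genes. In bulk RNA, fewer cells of a type and less RNA per cell cannot be told apart. All 10 hepatocyte markers passed as higher in replicate 2, among them albumin, Alb, with 17770 reads in replicate 2 and 158 in replicate 1, and none was at 0 in either library. Trf, which encodes transferrin, had 27362 reads in replicate 2 against 294 in replicate 1, and Ahsg, which encodes the plasma protein fetuin-A, had 10311 and 113. The part of the hepatocyte signal in the levels of the 10 genes was not tested. All 6 tested skeletal muscle markers were also higher in replicate 2, with Acta1, a muscle actin, at 758 reads in replicate 2 and 30 in replicate 1. Ckm, the muscle creatine kinase, had 477 reads in replicate 2 against 25 in replicate 1, and Tnnc2, a troponin subunit, had 240 and 5. Myh1 and Tnnt3 were at 0 in replicate 1.

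Red cell and adrenal markers moved the other way. All 5 tested erythroid markers passed as lower in replicate 2, with a sum of 3624 CPM in replicate 2 and 11339 CPM in replicate 1. Their top genes were the globins Hba-a1, with 1748 reads in replicate 2 and 6195 in replicate 1, Hbb-bs with 937 and 3292, and Hba-a2 with 470 and 1689. The 10 markers of the steroid-making cortex summed to 25437 CPM in replicate 2 and 57521 CPM in replicate 1, and all 10 passed as lower. Cyp11a1, which begins steroid synthesis, had 8539 reads in replicate 2 against 22720 in replicate 1. The downstream enzymes Cyp21a1 and Hsd3b1 had 5110 and 3577 reads in replicate 2, against 11998 and 8617 in replicate 1. Of the 10 chromaffin markers 9 passed as lower, with a sum of 5100 CPM in replicate 2 and 13112 CPM in replicate 1. Th, which makes the catecholamine precursor DOPA, had 661 reads in replicate 2 against 2168 in replicate 1. The granule proteins Chga and Chgb had 1491 and 1685 reads in replicate 2, against 4347 and 4738 in replicate 1. Under TMM and with spike-ins, 9 cortex markers were lower under each, and 7 and 6 chromaffin markers. Of all 9211 genes, 1646 were lower by total gene reads, 643 under TMM and 170 with spike-ins. By total gene reads, Prdx2, Prdx3 and Txn1 were lower in the library with less of the erythroid, cortical and chromaffin markers, and the part of those cells in their levels was not tested.

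The calls of adipocyte, endothelial and leukocyte markers depended on the scaling. Of 6 tested adipocyte markers 2 passed as higher, 5 under TMM and 6 with spike-ins, and their sum was 8326 CPM in replicate 2 and 7324 CPM in replicate 1. By total gene reads 8.58% of all genes were higher and 17.9% lower. Under TMM 1093 of all 9211 genes were higher and 643 lower, and with spike-ins 2071 and 170. Ucp1, the uncoupling protein of brown fat, had 1964 reads in replicate 2 against 1617 in replicate 1. Cidea had 2223 and 1979 reads, and Fabp4, the fatty acid carrier of fat cells, 2686 and 3047, in replicates 2 and 1. Of 8 tested endothelial markers 0 passed as higher and 1 as lower by total gene reads, 1 and 1 under TMM, and 4 and 0 with spike-ins. Of 6 tested leukocyte markers 3 passed as higher, and all 6 did under TMM and with spike-ins. The endothelial genes Plvap, Cldn5 and Eng had 179, 194 and 151 reads in replicate 2, against 352, 260 and 151 in replicate 1. The leukocyte genes Cd74, Lyz2 and H2-Ab1 had 99, 67 and 41 reads in replicate 2, against 71, 48 and 20 in replicate 1.

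The reads of most of the 10 genes matched an annotated transcript. A model is called Known when its intron chain is that of an annotated transcript, and ISM, for incomplete splice match, when it holds a part of one. NIC and NNC models have an unannotated chain, made of annotated splice sites in NIC and with at least 1 unannotated site in NNC, and Genomic models lie on a gene but follow none of its splicing. Known models held between 92.4% and 100% of reads in either library for 8 of the 10 genes, where the medians of all genes were 83.2% in replicate 2 and 81.0% in replicate 1. The exceptions were Prdx2, with 73.7% in replicate 2 and 72.7% in replicate 1, and Sod1, with 47.3% and 39.5%. No gene of the set differed between the libraries in this share (Fisher's exact test, two-sided, adjusted over 5969 genes, of which 0.637% passed). At an unadjusted p under 0.05 there was 1, Sod2, with 96.0% in replicate 2 and 92.4% in replicate 1 (Fisher's exact test, p = 0.0167, adjusted p = 0.464).

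**Figure D3:**
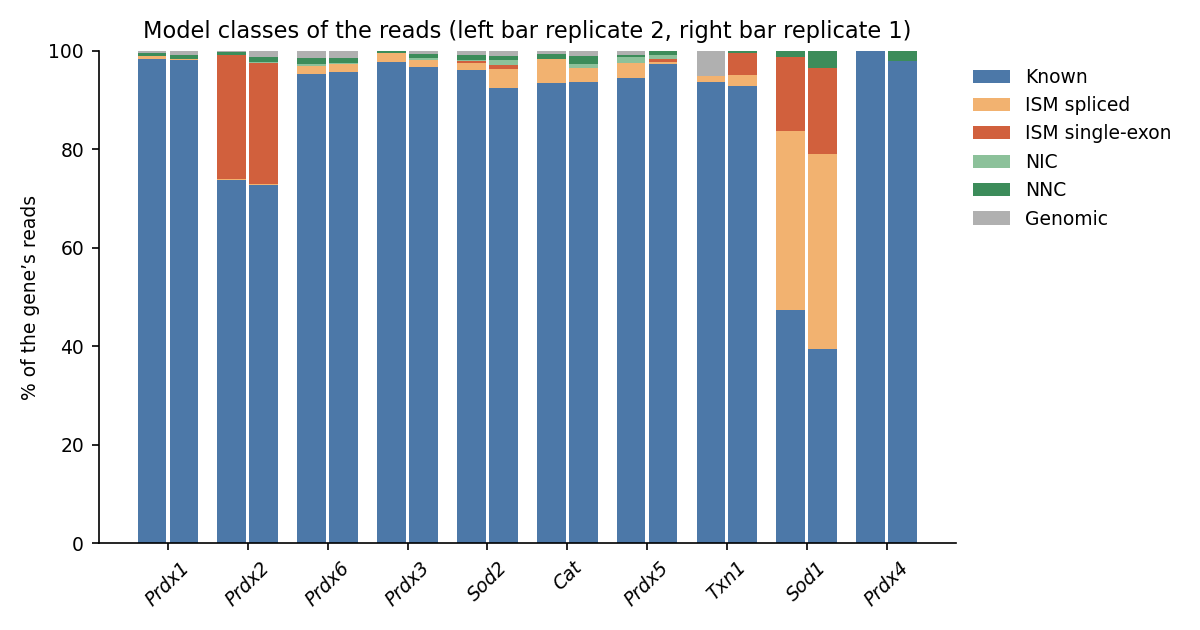
Share of each gene's reads by model class, in percent, with replicate 2 as the left and replicate 1 as the right bar of each pair. Prdx2 had a block of single-exon ISM reads of 25.3% in replicate 2 and 24.5% in replicate 1, and Sod1 had 47.3% of reads on Known models in replicate 2 and 39.5% in replicate 1.

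The missing part of Prdx2 was nearly all single-exon ISM reads. In both libraries the model with most of them lay at 84974000 to 84974311 on chromosome 8, within the last exon of Prdx2. Together, single-exon ISM models of Prdx2 held 149 reads in replicate 2 and 271 in replicate 1. These are 25.3% of Prdx2 reads in replicate 2, with an exact Clopper-Pearson 95% interval of 21.8% to 29.0%, and 24.5% in replicate 1, with an interval of 22.0% to 27.1%. The intervals overlapped, so the share was alike within counting error in both libraries. Of 5692 genes with spliced Known reads and at least 20 reads in each library, 63, or 1.11%, had at least these shares of single-exon ISM reads in both, Prdx2 included, and the median gene had 0%. Of the other 9 genes, Sod1 had 14.9% of such reads in replicate 2 and 17.5% in replicate 1, and Txn1 had 0 of 96 reads in replicate 2, with an exact 95% upper bound of 3.77%, and 8 of 181 in replicate 1.

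Sod1 had the most broken set of models. Its full-length form, Sod1-201 with 5 exons, held 26 of 74 reads in replicate 2 and 32 of 114 in replicate 1. An ISM chain of 2 exons, which holds only the last intron, had 22 reads in replicate 2 against 34 in replicate 1. The models of this chain begin at different places in the libraries, so their lengths were not compared. In replicate 2 the model with most reads begins at 90225145 and measures 298 bases. In replicate 1 it begins at 90220754, where Sod1-201 begins, and measures 4689 bases, with the introns before the last kept. How far each read reaches cannot be seen in counts. An ISM chain of 4 exons, lacking exon 1, held 5 reads in replicate 2 and 11 in replicate 1, and the last exon alone held 11 and 20. In all, 38 reads in replicate 2 and 65 in replicate 1 were incomplete at the intron level. A count of Sod1 by its Known models would therefore rest on fewer than 50 reads in either library.

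Almost all spliced reads of these genes used 1 intron chain. Over the Known, NIC and NNC reads with at least 1 intron, the leading chain held 98.0% of Prdx1 reads in replicate 2 and 98.4% in replicate 1, and 99.5% and 98.9% of Prdx3 reads. For Prdx4 it was 100% in replicate 2 and 98.0% in replicate 1, for Sod2 98.7% and 98.1%, for Cat 98.8% and 97.6%, and for Txn1 100% and 99.4%. Prdx6 had 95.2% in replicate 2 and 95.5% in replicate 1, Prdx2 91.1% and 88.2%, and Prdx5 90.8% and 91.6%. The medians of all genes compared were 88.6% in replicate 2 and 87.5% in replicate 1, so 9 of the 10 genes lay above them in both libraries. None of the 10 differed between the libraries in this share (Fisher's exact test, two-sided, adjusted over 4972 genes, of which 0.603% passed), and none had an unadjusted p under 0.05.

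Sod1 alone had a second chain with at least 10% of spliced reads in both libraries. Its leading chain held 72.2% in replicate 2 and 65.3% in replicate 1. Sod1-202, annotated as a retained intron form that keeps introns 1 and 2, held 9 of 36 spliced reads in replicate 2 and 13 of 49 in replicate 1. Its share was 25% in replicate 2, with an exact 95% interval of 12.1% to 42.2%, and 26.5% in replicate 1, with an interval of 14.9% to 41.1%. The intervals are wide because Sod1 had few spliced reads. The chain of Sod1-202 holds no intron that the leading chain lacks. Reads of the leading form that begin after intron 2 would be counted in it, so use of Sod1-202 itself is not shown.

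Prdx2 and Prdx5 had a second annotated form below that level. Prdx2-203 held 28 reads in replicate 2 and 68 in replicate 1, or 6.39% and 8.29% of spliced reads. Its exon 2 begins 88 bases earlier than that of Prdx2-201, in front of the start codon, so the forms differ in their untranslated leader. The junctions of exon 1 with exon 2 are shown with the bases of exon 2 in capitals, since they are where the reference sequences of the forms part.
Prdx2-201, mm10 chr8:84969748-84970254, plus strand: ctcttgctcacgcagTCATGGCCTCCGGCA
Prdx2-203, mm10 chr8:84969748-84970166, plus strand: ctcttgctcacgcagACTTAGCACCAAAAG
Prdx5-203, which starts inside intron 1 of the leading form and has a start codon of its own in the annotation, held 18 reads in replicate 2 and 15 in replicate 1, or 7.5% and 6.64%. Prdx1-201 had 17 reads in replicate 2 against 11 in replicate 1, and Prdx6-201, which has an additional exon before exon 2, had 13 and 10. Prdx6-208, which skips exon 2 and is annotated as a target of nonsense-mediated decay, had 5 reads in replicate 2 against 8 in replicate 1. Each of these forms of Prdx1 and Prdx6 stayed under 3% of spliced reads. The chains of Prdx5-203 and Prdx1-201 are those of the leading forms without intron 1. Reads of the leading forms cut short inside exon 2 would be counted in them, so use of another start is not shown.

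Unannotated chains were many and small. The 10 genes had 64 such chains, of which 16 were seen in both libraries, with 44 reads in replicate 2 and 72 in replicate 1. A change of 1 splice site by at most 10 bases accounted for 16 of them, with 16 reads in replicate 2 and 29 in replicate 1. The unannotated chain of Prdx2 with most reads, 2 in replicate 2 and 6 in replicate 1, ended exon 3 at a donor 3 bases earlier. That of Prdx6, with 5 reads in replicate 2 and 2 in replicate 1, likewise ended exon 3 at a donor 3 bases earlier. In Sod2, the chain with most reads, 2 in replicate 2 and 3 in replicate 1, began exon 3 at an acceptor 3 bases later. The exon ends are shown with the bases left out by these chains in capitals.
Prdx2, mm10 chr8:84970566-84970589, plus strand: ctctcagttcacccacctggcGTG
Prdx6, mm10 chr1:161244196-161244219, minus strand: aacatgcctgtgacggcccgtGTG
Sod2, mm10 chr17:13010520-13010543, plus strand: GAGatgttacaactcaggtcgctc
The bases left out of Prdx2 and Prdx6 begin with GT and those left out of Sod2 end with AG, the letters that usually open and close an intron. Each of these 3 changes leaves the reading frame in step. Of all 16 chains with a change of at most 10 bases, 6 had one that is a multiple of 3. Prdx1 had a pair of chains tied for most reads, each with 2 in replicate 2 and 3 in replicate 1. One of them spliced an upstream first exon, 10535 bases before the annotated donor, to exon 2, and the other began exon 2 at an acceptor 7 bases later. None of these chains reached 10% of its gene's spliced reads.

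Genes of this kind have many processed copies, which are cDNA reinserted in the genome without introns, and reads may be placed on either. A search of the coding sequences against the GENCODE M21 transcripts, at 80% identity or more over at least 50% of the coding length, found 13 copies for 5 of the genes. They were 5 copies of Prdx1, 3 of Prdx2, 2 of Prdx6, 2 of Sod1 and 1 of Txn1, all processed pseudogenes except the protein-coding Prdx6b. Only 1 of the 13, the Sod1 copy Gm8566, had reads, 40 in replicate 2 and 59 in replicate 1. Gm21399 and Gm7204, which are 98.3% and 97.5% identical to Prdx1, had 0 reads in both libraries.

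Gm8566 lies on chromosome 6 at 67205619 to 67206083, as 1 exon of 465 bases on the plus strand, and is 97.8% identical to the coding sequence of Sod1 on chromosome 16. Gene and copy differ at 10 of the 465 coding positions. Reads on the copy made up 35.1% of the sum of Sod1 and Gm8566 in replicate 2, with an exact 95% interval of 26.4% to 44.6%, and 34.1% in replicate 1, with an interval of 27.1% to 41.7%. The share was alike within counting error in both libraries. Whether a read of Sod1 was placed on the copy cannot be seen in tables of counts, so the level of Sod1 alone is uncertain. With the copy added, Sod1 had 120 CPM in replicate 2, against 162 CPM in replicate 1, a log2 ratio of -0.43, and passed as lower (exact binomial test, adjusted p = 0.0493). Without it, Sod1 did not pass.

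**Figure D4:**
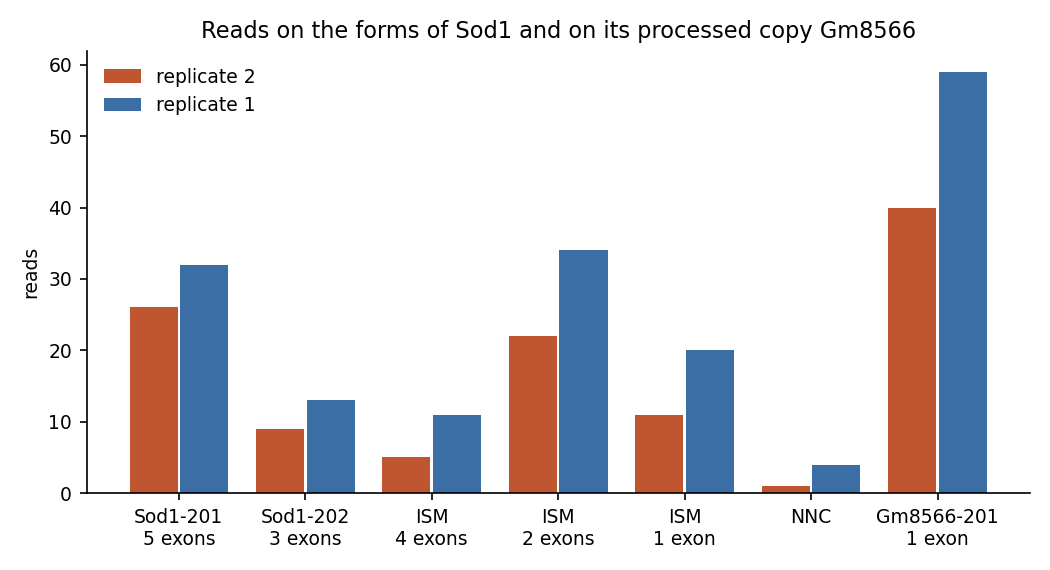
Reads on each form of Sod1 and on its processed copy Gm8566, replicate 2 left and replicate 1 right. The copy, with 40 reads in replicate 2 and 59 in replicate 1, held more reads than any single form of the gene in either library.

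Thioredoxin and glutaredoxin genes encode the partners that return electrons to peroxiredoxins and to protein thiols. Of 19 tested, Txn1 among them, 3 passed as higher and 5 as lower in replicate 2, with a median log2 ratio of -0.12, against 8.58% higher, 17.9% lower and a median of -0.28 over all genes. Under TMM the counts were also 3 and 5, but with spike-ins they were 7 and 1. Of all 9211 genes, 1093 were higher and 643 lower under TMM, and 2071 and 170 with spike-ins. Srxn1, the sulfiredoxin that rescues over-oxidised peroxiredoxins, had 83 reads in replicate 2 against 260 in replicate 1, and its log2 ratio of -1.47 remained lower under TMM and spike-in scaling. Txn2, the mitochondrial thioredoxin that serves Prdx3, had 470 reads in replicate 2 against 810 in replicate 1, with a log2 ratio of -0.61 that stayed lower under TMM and did not pass with spike-ins. Glrx5, a mitochondrial glutaredoxin of iron-sulfur cluster assembly, had 521 reads in replicate 2 against 962 in replicate 1, and Glrx2 had 46 and 102. Both passed as lower, though not with spike-ins. Glrx3 had 159 reads in replicate 2 against 195 in replicate 1, and Txnrd1, the cytosolic thioredoxin reductase, had 131 and 175. Neither passed, apart from Glrx3 as higher with spike-ins.

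Of 8 tested genes of superoxide and copper handling, none passed as higher and 3 as lower, where 8.58% and 17.9% of all genes did, and the median log2 ratio was 0.01 against -0.28 over all genes. Under TMM 1 was higher and 1 lower, and with spike-ins 5 were higher and none lower. All 9211 genes had 1093 higher and 643 lower under TMM, and 2071 and 170 with spike-ins. Sod3, the secreted superoxide dismutase, had 198 reads in replicate 2 against 284 in replicate 1, a log2 ratio of -0.35 that turned to 0.24 with spike-ins, where it did not pass. Atox1, a copper chaperone, had 300 reads in replicate 2 against 432 in replicate 1, a log2 ratio of -0.35 that turned to 0.23 with spike-ins, and neither gene passed under TMM. Slc25a3, a mitochondrial carrier of phosphate and copper, had 553 reads in replicate 2 against 1040 in replicate 1 and passed as lower, though not with spike-ins. Cox17, which hands copper to cytochrome oxidase, had 314 reads in replicate 2 against 380 in replicate 1, and the metallothionein Mt1 had 153 and 135. Neither passed by total gene reads, but Mt1 passed as higher under TMM and both did with spike-ins.

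Of 9 tested genes of glutathione peroxidases, glutathione reductase and glutathione synthesis, 2 passed as higher and 3 as lower, beside 8.58% and 17.9% of all genes. Their median log2 ratio was -0.15, with -0.28 over all genes. Under TMM the counts were 3 and 1, and with spike-ins 4 and 0. Among all 9211 genes they were 1093 and 643 under TMM, and 2071 and 170 with spike-ins. Gpx1, the cytosolic glutathione peroxidase, had 736 reads in replicate 2 against 536 in replicate 1, and its log2 ratio of 0.63 stayed higher under both other scalings. Gclm, a subunit of the enzyme that begins glutathione synthesis, had 93 reads in replicate 2 against 66 in replicate 1 and likewise stayed higher. Gpx4, which reduces lipid peroxides, had 646 reads in replicate 2 against 994 in replicate 1, a log2 ratio of -0.45 that turned to 0.14 with spike-ins, where it did not pass. Gsr, the glutathione reductase, had 85 reads in replicate 2 against 145 in replicate 1, and Gpx8, of the endoplasmic reticulum, had 40 and 82. Both were lower by total gene reads and passed under neither other scaling. Gpx3, the plasma glutathione peroxidase, had 539 reads in replicate 2 against 672 in replicate 1, and Gss, the glutathione synthetase, had 82 and 101. Neither passed, apart from Gpx3 as higher with spike-ins.

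Of 15 tested genes of the NRF2 list, the transcription factor that answers oxidants, its inhibitor Keap1 and their known targets, 1 passed as higher and 7 as lower, where all genes had 8.58% higher and 17.9% lower. The median log2 ratio of -0.25 was close to the -0.28 of all genes. Under TMM 4 were higher and 2 lower, and with spike-ins 5 and 2. All 9211 genes had 1093 higher and 643 lower under TMM, and 2071 and 170 with spike-ins. Me1, the malic enzyme that makes NADPH, had 380 reads in replicate 2 against 1007 in replicate 1, and its log2 ratio of -1.23 stayed lower under both other scalings, as did that of Srxn1. Fth1, the heavy chain of ferritin, had 1942 reads in replicate 2 against 2372 in replicate 1, a log2 ratio of -0.12 that turned to 0.13 under TMM and 0.47 with spike-ins, and it passed as higher under both. Taldo1, of the pentose phosphate pathway, had 608 reads in replicate 2 against 893 in replicate 1, a log2 ratio of -0.38 that turned to 0.20 with spike-ins, where it passed as higher. Tkt, of the same pathway, had 127 reads in replicate 2 against 204 in replicate 1, a log2 ratio of -0.51 that turned to 0.08 with spike-ins. Ftl1, the light chain of ferritin, had 859 reads in replicate 2 against 984 in replicate 1, a log2 ratio of -0.03 that did not pass and turned to 0.22 under TMM and 0.56 with spike-ins, where it passed as higher in both. The element of this factor, searched as TGACNNNGC on both strands of RefSeq promoter windows on GRCm38.p6, was present in 2 of 9 promoters of the set, those of Prdx1 and Sod1, and in 12.4% of all 32851 promoters. Prdx6 was not matched in that table.

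Peroxisomes are the compartment of catalase and hold oxidases that release its substrate. Of 22 peroxisomal genes tested, 10 passed as higher and 4 as lower, with a median log2 ratio of 0.27, against 8.58% higher, 17.9% lower and a median of -0.28 over all genes. Under TMM the counts were 10 and 2, and with spike-ins 13 and 0. Over all 9211 genes they were 1093 and 643 under TMM, and 2071 and 170 with spike-ins. Scp2, which encodes a sterol carrier and a peroxisomal thiolase, had 1313 reads in replicate 2 against 521 in replicate 1, and its log2 ratio of 1.5 stayed higher under both other scalings. Crat, the carnitine acetyltransferase, had 371 reads in replicate 2 against 328 in replicate 1, and Hsd17b4, of peroxisomal beta-oxidation, had 311 and 256, and both stayed higher. Idh1, a source of NADPH in cytosol and peroxisomes, had 530 reads in replicate 2 against 980 in replicate 1, and Pex16, a peroxisome assembly factor, had 194 and 372. Both were lower, though neither passed with spike-ins. Acaa1a had 278 reads in replicate 2 against 314 in replicate 1, and Pex19 had 201 and 273. Neither passed, apart from Acaa1a as higher with spike-ins. Uox, the urate oxidase of liver peroxisomes, had 449 reads in replicate 2 against 1 in replicate 1, and Hao1, a liver glycolate oxidase, had 140 and 0. These 2 genes were singled out after their values were seen, and both encode enzymes that release hydrogen peroxide. The hepatocyte markers moved with the same library, and their part in the peroxisomal genes was not tested.

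**Figure D5:**
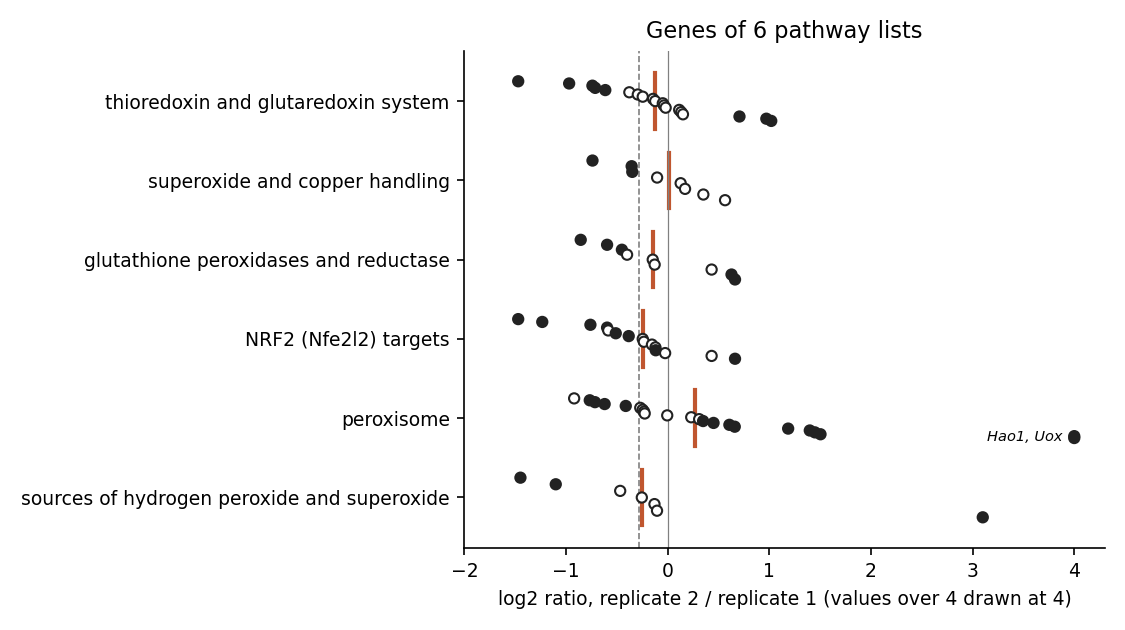
Log2 ratio of replicate 2 over replicate 1 for each tested gene of 6 lists (filled points passed the test, open ones did not), with the median of each list as a vertical bar and that of all genes, -0.28, as the dashed line. Uox and Hao1 lie beyond the axis and are drawn at its end. The peroxisome list had the highest median, 0.27.

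Genes that produce superoxide or hydrogen peroxide were few. Of 7 tested, 1 passed as higher and 2 as lower, with a median log2 ratio of -0.25, against 8.58% higher, 17.9% lower and a median of -0.28 over all genes. The same counts for this list were found under TMM and with spike-ins. All 9211 genes had 1093 higher and 643 lower under TMM, and 2071 and 170 with spike-ins. Fdx1, the ferredoxin that feeds electrons to mitochondrial steroid hydroxylases, had 536 reads in replicate 2 against 1648 in replicate 1, a log2 ratio of -1.45. Fdxr, its reductase, had 367 reads in replicate 2 against 887 in replicate 1, a log2 ratio of -1.10. Both stayed lower under all scalings, and Fdx1 is itself one of the cortex markers. Maob, a monoamine oxidase, had 49 reads in replicate 2 against 6 in replicate 1, a log2 ratio of 3.10. Xdh, the xanthine dehydrogenase, had 75 reads in replicate 2 against 117 in replicate 1, and Cyba, a subunit of NADPH oxidase, had 34 and 42, and neither passed.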

How the data were processed

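Long-read RNA of 2 adrenal libraries was analysed from the deposited tables, which per the file headers give whole-number counts of reads for each transcript model on mm10 with GENCODE M21 names and the novelty classes of the TALON program. The counts were not scaled by the authors, and the replicates were not pooled. For the aligner and the version of TALON, no statement was found: not given in the sources used here. Reads of every class were summed by gene with Python 3.11.15 and pandas 2.3.3, leaving out spike-ins, and tested with SciPy 1.17.1. The exact conditional binomial test used genes with at least 20 summed reads, and the Fisher tests at least 20 reads (spliced reads for chains) in each library. Both were tested on simulated data. Reads carry no molecular identifiers, so intervals, limits and tests cover counting error only. Alternatives used edgeR 4.0.16 (TMM, and exact tests with an assumed coefficient of variation), DESeq2 1.42.0 size factors, spike-in reads, other minimums, Known models only, 1 read added and copies added. Chains were matched by coordinates. Copies were found with BLAST 2.17.0. The genes named are the 10 of the set, the passing genes of each pathway list (at most 5 by mean CPM) with the 2 highest that did not pass, the top 3 of each marker list, copies with reads, and, for each of the 10, the leading chain, a second chain of at least 10% in both libraries and the unannotated chain with most reads from 5 summed. The lower annotated forms of Prdx1, Prdx2, Prdx5 and Prdx6 were added after their values were seen. The genes and lists were chosen with earlier results of these data known.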

Additional observations from a re-analysis of the deposited data

Results flagged for a closer look

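Reads outside the comparisons were found on a copy of Sod1 and on the strand opposite some of the genes. The processed copy Gm8566 held 40 reads in replicate 2 and 59 in replicate 1, above the limit of 3 counts in both. Models without an annotated gene on the strand opposite Sod2 held 18 reads in replicate 2 and 37 in replicate 1. Opposite Sod1 they held 17 reads in replicate 2 and 18 in replicate 1, and opposite Prdx3 5 and 8. All of those over Sod1 and Sod2 were single-exon. No other gene of the set had more than 3 such reads in a library. Whether strand was kept in every read was not tested.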

How the results depend on the processing

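Of the 10 genes, 6 passed by total gene reads, and between 5 and 8 under TMM (8), DESeq2 size factors (8), spike-in reads (6), a minimum of 10 reads (6), no minimum (6), Known models only (5), 1 read added (6) and copies added (7). Of all 9211 genes, 2436 passed by total gene reads, 1736 under TMM, 1731 with DESeq2 size factors and 2241 with spike-ins. The 6 members that passed with spike-ins shared only Prdx1, Prdx4 and Cat with the 6 by total gene reads. With an edgeR exact test that assumes a coefficient of variation of 0.2 between replicates, 0 passed (2 at an unadjusted p under 0.05), and 0 passed at 0.4 (0 unadjusted). Of all 9211 genes, 513 passed at 0.2 and 336 at 0.4. For the 10 genes, no difference in gene reads is therefore shown beyond such a spread, and the libraries cannot give the true one. The chain and class shares had 0 genes under each alternative run. Over single genes, 80 alternatives kept direction and side of the threshold, 16 lost the call, 9 gained it and 5 reversed. Sod1 reversed with spike-ins (0.14), and Sod2 with TMM (0.21), DESeq2 size factors (0.20), spike-ins (0.55) and, added after the data were seen, scaling without the 305 genes over 16-fold higher in replicate 2 (0.20). They took 15.5% of the gene total in replicate 2 but 0.168% in replicate 1, and without them 8 of the 10 passed. Prdx1 lost its call with Known models only (0.12). Leaving out a replicate left levels and no ratio. No paired analysis was possible because there is only 1 group. Depth limits Sod1, Prdx4 and Txn1 most, with under 200 reads each in either library.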
